A study of Mus musculus with 6 samples.

Results

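Respiratory complex I is the NADH:ubiquinone oxidoreductase of the inner mitochondrial membrane. Its transcripts were compared over 3 groups of isolated mouse heart cells, using 36 nuclear genes named for its subunits. For each gene the probe set annotated to that gene alone with the highest mean over the 6 arrays was taken, which gave 34 measured genes of 18193 in the whole table. Ndufs6 and Ndufa11 had no probe set annotated to them alone and were not analysed here.

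The groups were cardiomyocytes from male mice of 8 weeks, cardiomyocytes from mice at postnatal day 1, and cardiac fibroblasts from mice at postnatal day 1, with 2 Affymetrix arrays each. All animals were C57BL/6J, and the neonatal cells came from both sexes. Adult cells were released by Langendorff perfusion, which runs enzyme solution through the vessels of the excised heart, and neonatal cells by dissociation with separation on Percoll, a density medium. The labels describe trypsin and collagenase for all cells, and plating, with a check by TMRM, a mitochondrial dye, that cardiomyocytes were absent, to part the cell types. Age, sex and isolation thus differ together between adult and neonatal cardiomyocytes and cannot be told apart. Between adult cardiomyocytes and neonatal fibroblasts the cell type differs along with all of these, so its part cannot be told apart either. The labels do not say whether arrays came from separate preparations or how many animals were pooled, so p-values measure the spread between arrays, which may be technical.

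Complex I takes electrons from NADH in the matrix, passes them through a flavin and a chain of iron-sulfur clusters to ubiquinone, and pumps protons across the membrane. Its matrix arm carries the cofactors. Its membrane arm holds the pumps, built around core subunits that the mitochondrial genome encodes and surrounded by nuclear accessory subunits. Heart muscle is among the tissues richest in mitochondria, and the heart shifts towards oxidative fuel use after birth. The measured genes were 6 core subunits of the matrix arm, 8 of 9 listed accessory subunits of the matrix arm, 18 of 19 listed accessory subunits of the membrane arm, the acyl carrier protein Ndufab1, found in both arms, and Ndufa4, now assigned to complex IV.

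The arrays were checked against cell markers first. On both neonatal replicate 1 arrays the title and the source name disagree on the cell type; here the source name set the group. Summed over 10 of 10 measured cardiomyocyte markers, the level (log2 of the summed linear values) was 17.40 and 17.35 on the adult arrays, 17.34 and 17.09 on the neonatal cardiomyocyte arrays, and 12.79 and 15.14 on the fibroblast arrays. Fibroblast replicate 2 therefore held more cardiomyocyte transcript than fibroblast replicate 1. The 10 fibroblast markers summed to 12 and 13.95 in adult cardiomyocytes, 14.26 and 14.10 in neonatal cardiomyocytes and 16.40 and 15.98 in fibroblasts. On the neonatal replicate 1 arrays both sets of markers thus followed the source name, not the title. The 9 leukocyte markers summed to 10.62 and 12.13, 10.85 and 9.62, and 15.50 and 12.97 (adult, neonatal cardiomyocytes, fibroblasts). Values on this platform have no zero, so no marker is listed at 0. The 8 endothelial markers summed to 11.68 and 12.49 in adult cardiomyocytes, 12.25 and 12.69 in neonatal cardiomyocytes and 11.08 and 11.74 in fibroblasts. Their median log2 difference was 1.80 for adult cardiomyocytes minus fibroblasts, with 2 of 8 called higher (10.1% of all genes). It was 1.63 for neonatal cardiomyocytes minus fibroblasts, with 0 called in limma and 3 higher at unadjusted p under 0.05 (8.95% of all genes). The 18S ribosomal control probe sets averaged 8.87, 7.20 and 7.03 on the replicate 1 arrays of adult cardiomyocytes, neonatal cardiomyocytes and fibroblasts, and 10.37, 9.66 and 9.38 on the replicate 2 arrays. The gap between the 3′ and 5′ control probe sets of beta-actin, a sign of RNA quality, was 0.80 and 0.81 in adult cardiomyocytes, 0.77 and 0.45 in neonatal cardiomyocytes and 0.26 and 0.31 in fibroblasts, and that of Gapdh ran between 0.09 and 0.24. The beta-actin gap thus had the same order of groups as the complex I median given next; the part of any of these in the results was not tested.

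Complex I transcripts were highest in adult cardiomyocytes, intermediate in neonatal cardiomyocytes and lowest in neonatal fibroblasts. The median over the 34 genes was a log2 value of 13.20 on both adult arrays, 12.71 and 12.36 on the neonatal cardiomyocyte arrays, and 10.96 and 11.37 on the fibroblast arrays. By group means, 33 genes followed this order, and in 30 of 34 the arrays of the 3 groups did not overlap, against 9.55% of all genes. The exceptions were Ndufa2, Ndufb4, Ndufb6 and Ndufc2. In bulk RNA, fewer cells of a type and less RNA per cell cannot be told apart.

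**Figure D1:**
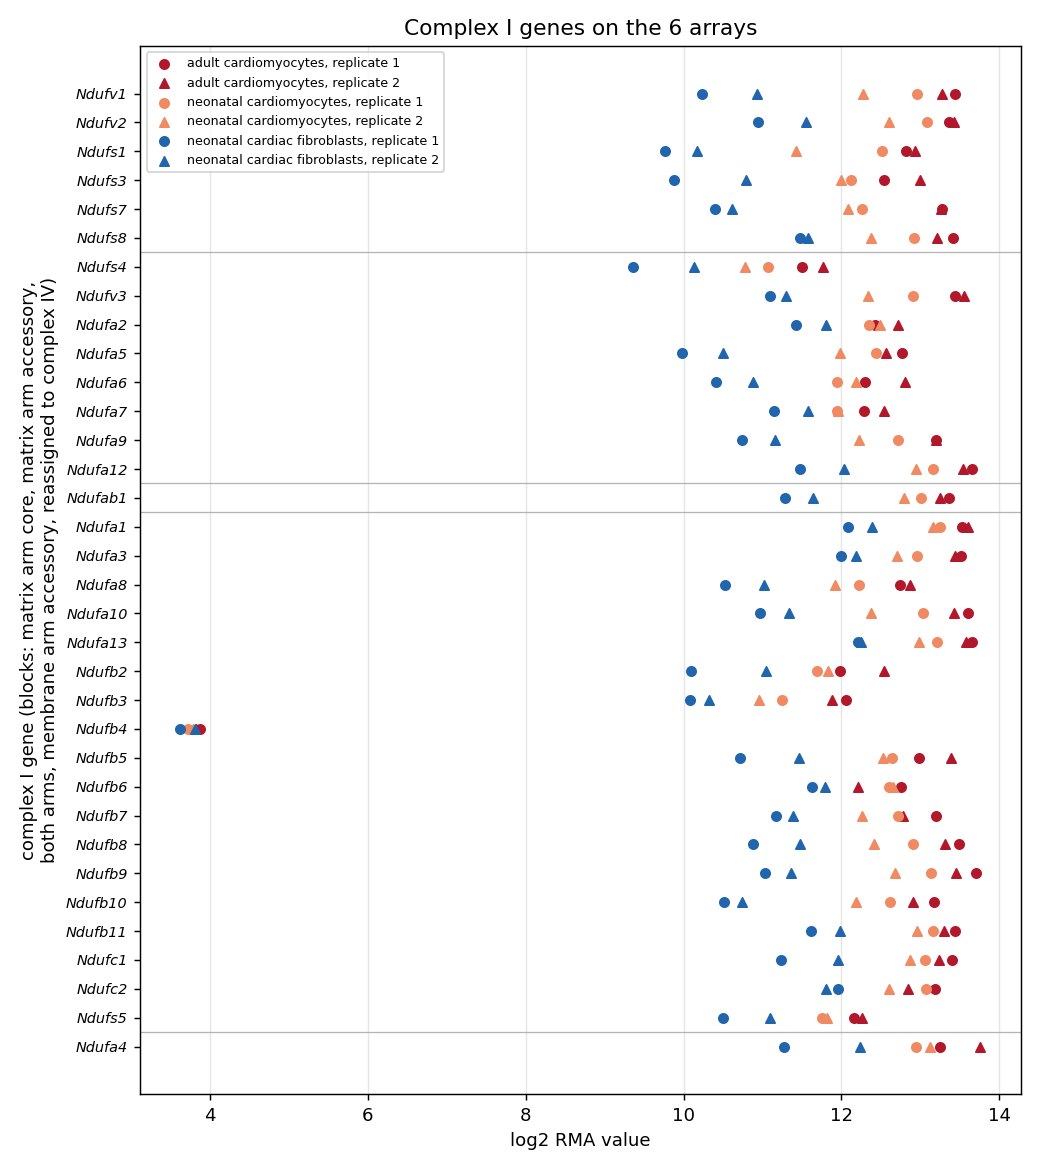
Log2 RMA value (x axis) of each of the 34 measured complex I genes (rows, in blocks by arm) on the 6 arrays, with colours for the groups, circles for replicate 1 and triangles for replicate 2. In 30 genes the adult, neonatal cardiomyocyte and fibroblast arrays form separate pairs from right to left, and Ndufb4 lies alone at the low end, between 3.62 and 3.87.

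In adult cardiomyocytes 32 of the 34 genes were higher than in neonatal fibroblasts past the threshold, and 0 were lower. Here a call means an adjusted p under 0.05 in limma with Benjamini-Hochberg adjustment over all genes; 10.1% of all genes were called higher, 11% lower and 21% in either direction. The median log2 difference of the 34 genes was 1.84, a 3.58-fold ratio, against 0.09 for all genes. All 34 means were higher (56% of all genes), and 33 members passed at unadjusted p under 0.05 (17.7%). Single differences ran between 0.13 and 2.91, with standard errors (SE) between 0.17 and 0.40. The arrays of the groups did not overlap in any of the 34 genes, which held for 37.8% of all genes.

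These calls rest on few arrays. A fit without 1 adult or fibroblast array leaves 1 in that group, and it called fewer members and fewer genes over the whole table. Without adult replicate 1 all calls ended, over the whole table as well, with the members' median at 1.99. Without adult replicate 2 the median was 1.89, and without fibroblast replicate 1 it was 1.65. Without fibroblast replicate 2, the array with the higher cardiomyocyte markers, it was 2.15. Fewer members and fewer genes were also called without both neonatal replicate 1 arrays, whose titles disagree, where the median was 1.65. The same held without both neonatal replicate 2 arrays, where it was 2.15. Grouped by the titles, 0 were called (0.753% of all genes) and 1 passed unadjusted, with the median at 1.05. The markers on the neonatal replicate 1 arrays followed the source names, not these titles.

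The core subunits of the matrix arm carry the flavin and the iron-sulfur clusters. All 6 rose in adult cardiomyocytes relative to fibroblasts, with a median log2 difference of 2.60. Ndufs1, which holds several of the clusters, measured 12.81 and 12.94 in adult cardiomyocytes, 12.52 and 11.42 in neonatal cardiomyocytes and 9.76 and 10.17 in fibroblasts. Its adult arrays lay 7.51-fold above the fibroblast arrays (log2 2.91 ± 0.40 SE, limma adjusted p = 0.0126), the largest difference among the members, and its neonatal cardiomyocyte arrays lay further apart than either other pair. Ndufv1, which binds the flavin and oxidises NADH, measured 13.44 and 13.28 in adult cardiomyocytes, 12.95 and 12.27 in neonatal cardiomyocytes and 10.23 and 10.93 in fibroblasts. The adult arrays were 6.86-fold above the fibroblast arrays (adjusted p = 0.0106), and no group overlapped another.

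Ndufs7 carries the last iron-sulfur cluster before ubiquinone. It measured 13.27 and 13.26 in adult cardiomyocytes, 12.26 and 12.08 in neonatal cardiomyocytes and 10.39 and 10.61 in fibroblasts, so that each pair was tight and the pairs were well separated. Its adult minus fibroblast difference was 2.76 ± 0.18 (SE; 6.80-fold, adjusted p = 0.00411), and its p ranked 65th among 18193 genes. Its other probe set gave 2.55 ± 0.36. Ndufs3, a core subunit without a cofactor, measured 12.54 and 12.99 in adult cardiomyocytes, 12.12 and 11.99 in neonatal cardiomyocytes and 9.88 and 10.79 in fibroblasts. Its adult arrays were 5.40-fold above the fibroblasts (adjusted p = 0.0141), and the fibroblast arrays differed more from each other than the adult ones did.

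Ndufv2, an iron-sulfur subunit beside the flavin, measured 13.36 and 13.42 in adult cardiomyocytes, 13.09 and 12.60 in neonatal cardiomyocytes and 10.95 and 11.55 in fibroblasts (4.42-fold adult over fibroblast). Ndufs8, which carries clusters on the way to ubiquinone, measured 13.42 and 13.21 in adult cardiomyocytes, 12.92 and 12.37 in neonatal cardiomyocytes and 11.48 and 11.58 in fibroblasts. At 3.44-fold it had the smallest adult over fibroblast ratio of the core subunits. Of its other 5 probe sets 4 gave differences between 1.45 and 1.89, and a dimmer one gave 0.17.

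The accessory subunits of the matrix arm also rose, 8 of 8, with a median log2 difference of 1.90 between adult cardiomyocytes and fibroblasts. Ndufa5 measured 12.77 and 12.57 in adult cardiomyocytes, 12.44 and 11.98 in neonatal cardiomyocytes and 9.98 and 10.49 in fibroblasts, a 5.41-fold ratio of adult to fibroblast (adjusted p = 0.00895). Ndufv3, a subunit known for alternative splicing, measured 13.43 and 13.55, 12.90 and 12.34, and 11.09 and 11.30 across adult cardiomyocytes, neonatal cardiomyocytes and fibroblasts (4.91-fold). Both had fibroblast arrays far below either cardiomyocyte group. Ndufa9, which binds a dinucleotide near the joint of the arms, measured 13.20 and 13.19 in adult cardiomyocytes, 12.72 and 12.22 in neonatal cardiomyocytes and 10.74 and 11.16 in fibroblasts (4.75-fold).

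Ndufa6, a subunit that binds the acyl carrier protein, measured 12.29 and 12.81 in adult cardiomyocytes, 11.94 and 12.18 in neonatal cardiomyocytes and 10.41 and 10.88 in fibroblasts (3.74-fold adult over fibroblast). Ndufs4, whose loss in mice causes a Leigh-like brain disease, measured 11.49 and 11.77, 11.07 and 10.78, and 9.36 and 10.13 over those groups (3.71-fold). In both genes the lowest adult array was above the highest neonatal cardiomyocyte array. Ndufa12 measured 13.65 and 13.54 in adult cardiomyocytes, 13.16 and 12.95 in neonatal cardiomyocytes and 11.48 and 12.03 in fibroblasts (3.59-fold). That value comes from a probe set that can bind related transcripts; the other bright probe sets, of the same kind, gave 1.19 and 1.43 for neonatal cardiomyocytes minus fibroblasts, and the remaining one, which is dim (mean value 6.00), gave −0.34. The acyl carrier protein Ndufab1, which also serves mitochondrial fatty acid synthesis, measured 13.36 and 13.24, 13.00 and 12.80, and 11.29 and 11.64 in that order (3.57-fold).

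The remaining accessory subunits of the matrix arm had smaller differences. Ndufa7 measured 12.29 and 12.54 in adult cardiomyocytes, 11.94 and 11.96 in neonatal cardiomyocytes and 11.14 and 11.57 in fibroblasts (2.08-fold, adjusted p = 0.0303). Its other 4 probe sets gave log2 differences between 0.95 and 1.15, close to the 1.05 of the probe set used. Ndufa2, a subunit with a thioredoxin-like fold, measured 12.42 and 12.72 in adult cardiomyocytes, 12.35 and 12.49 in neonatal cardiomyocytes and 11.42 and 11.80 in fibroblasts (1.94-fold, adjusted p = 0.0386). Its adult and neonatal cardiomyocyte arrays interleaved.

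Of the 18 measured accessory subunits of the membrane arm, 16 rose in adult cardiomyocytes relative to fibroblasts, with a median log2 difference of 1.70. The largest was in Ndufb10, which measured 13.17 and 12.90 in adult cardiomyocytes, 12.61 and 12.19 in neonatal cardiomyocytes and 10.51 and 10.74 in fibroblasts (5.33-fold, adjusted p = 0.00758). Ndufb9, a second subunit that binds the acyl carrier protein, measured 13.70 and 13.45, 13.13 and 12.68, and 11.03 and 11.36 over those groups (5.21-fold). Ndufa10, a relative of nucleoside kinases, measured 13.60 and 13.43 in adult cardiomyocytes, 13.04 and 12.38 in neonatal cardiomyocytes and 10.96 and 11.33 in fibroblasts (5.16-fold). In these 3 genes the pairs of the 3 groups were separate.

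Ndufb8 measured 13.48 and 13.31 in adult cardiomyocytes, 12.90 and 12.42 in neonatal cardiomyocytes and 10.87 and 11.47 in fibroblasts (4.67-fold). Ndufb5 measured 12.98 and 13.39, 12.64 and 12.52, and 10.72 and 11.47 in that order (4.27-fold). Ndufa8, which has the cysteine pattern of proteins folded in the intermembrane space, measured 12.74 and 12.87 in adult cardiomyocytes, 12.22 and 11.92 in neonatal cardiomyocytes and 10.53 and 11.02 in fibroblasts (4.08-fold). All 3 had the higher fibroblast value on replicate 2, as did every member but Ndufc2.

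Ndufb3 measured 12.06 and 11.87 in adult cardiomyocytes, 11.25 and 10.95 in neonatal cardiomyocytes and 10.08 and 10.32 in fibroblasts (3.40-fold), with steps of nearly equal size between the groups. Ndufc1 measured 13.40 and 13.23, 13.05 and 12.87, and 11.23 and 11.95 in that order (3.31-fold). Ndufb7 measured 13.20 and 12.78 in adult cardiomyocytes, 12.71 and 12.26 in neonatal cardiomyocytes and 11.17 and 11.38 in fibroblasts (3.28-fold), and its lower adult array lay just above its higher neonatal cardiomyocyte array. Ndufb2 measured 11.98 and 12.54, 11.69 and 11.83, and 10.09 and 11.05 in that order (3.23-fold), with the largest gap between fibroblast arrays in this arm.

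The X-linked genes Ndufa1 and Ndufb11 were compared here between adult males and newborns of both sexes. Ndufb11 measured 13.44 and 13.29 in adult cardiomyocytes, 13.17 and 12.95 in neonatal cardiomyocytes and 11.61 and 11.98 in fibroblasts (2.98-fold adult over fibroblast). Ndufa1 measured 13.52 and 13.60, 13.25 and 13.16, and 12.08 and 12.39 in that order (2.51-fold). Adult and neonatal cardiomyocytes differed by 0.31 ± 0.21 (SE) in Ndufb11 and by 0.36 ± 0.19 in Ndufa1, neither past the threshold (limma adjusted p = 0.416 and 0.314).

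The remaining calls of the membrane arm were among its smaller ones. Ndufs5 measured 12.15 and 12.26 in adult cardiomyocytes, 11.76 and 11.82 in neonatal cardiomyocytes and 10.50 and 11.09 in fibroblasts (2.66-fold). Ndufa13, also known as the cell death regulator GRIM-19, measured 13.65 and 13.58, 13.21 and 12.98, and 12.20 and 12.25 in that order (2.62-fold). Ndufa3 measured 13.51 and 13.43 in adult cardiomyocytes, 12.96 and 12.71 in neonatal cardiomyocytes and 12 and 12.18 in fibroblasts (2.61-fold). Each of these 3 kept its pairs apart. Ndufc2 measured 13.18 and 12.85, 13.07 and 12.60, and 11.96 and 11.80 in that order (2.19-fold, adjusted p = 0.0323), with interleaved adult and neonatal cardiomyocytes.

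Ndufb6 and Ndufb4 were the members not called between adult cardiomyocytes and fibroblasts. Ndufb6 measured 12.75 and 12.21 in adult cardiomyocytes, 12.60 and 12.65 in neonatal cardiomyocytes and 11.63 and 11.79 in fibroblasts, which put adult cells 0.77 ± 0.23 (SE) above fibroblasts (limma adjusted p = 0.0772). Its adult arrays lay on either side of the neonatal cardiomyocyte arrays. A second bright probe set of Ndufb6 measured 12.41 and 12.65 in adult cardiomyocytes, 12.27 and 12.54 in neonatal cardiomyocytes and 10.83 and 11.77 in fibroblasts. It gave 1.23 ± 0.35 (SE) for adult cardiomyocytes minus fibroblasts and turned the direction between the ages, to 0.13 ± 0.35. Ndufb4 measured 3.87 and 3.82, 3.72 and 3.78, and 3.62 and 3.80 over those groups, below the lower quartile of every array (4.19 to 4.37). It had 1 probe set annotated to it alone, and values this low say little about the transcript. Ndufa4, which binds complex IV rather than complex I, measured 13.25 and 13.76 in adult cardiomyocytes, 12.94 and 13.12 in neonatal cardiomyocytes and 11.28 and 12.24 in fibroblasts (3.36-fold, adjusted p = 0.0333).

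Neonatal cardiomyocytes had higher means than neonatal fibroblasts in all 34 genes (47.4% of all genes), and 1, Ndufs7, was called higher. Among all genes 0.676% were called higher, 0.143% lower and 0.819% in either direction. The median log2 difference was 1.30 (2.46-fold), against −0.02 for all genes, and limma passed 33 members, all but Ndufb4, at unadjusted p under 0.05, against 8.95% of all genes. The arrays did not overlap in the same 33, against 22.3% of all genes. Ndufs7 differed by 1.67 ± 0.18 (SE), 3.18-fold, with an adjusted p of 0.0424. The largest differences were in Ndufv1 (2.03 ± 0.34, adjusted p = 0.0739), Ndufs1 (2.01 ± 0.40, 0.0940) and Ndufa5 (1.97 ± 0.27, 0.0562). The smallest besides Ndufb4 were in Ndufa7 (0.59 ± 0.22, 0.280) and Ndufa3 (0.74 ± 0.18, 0.141).

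The call of Ndufs7 ended without neonatal cardiomyocyte replicate 1 (adjusted p = 0.167), fibroblast replicate 1 (0.146) or either adult array (0.158), and in the replicate block (0.0595). Over all alternatives but the titles its adjusted p ran between 0.0365 and 0.377. In the settings named first its difference stayed between 1.56 and 1.67, and with the title groups it turned to −0.20 (adjusted p = 1). Without fibroblast replicate 2 the median over members was 1.59. Without both neonatal replicate 1 arrays the median was 0.92, and all calls ended, over the whole table as well.

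Within each neonatal group the members moved with the cardiomyocyte markers, but other marker lists moved as well. On fibroblast replicate 1 the members lay below replicate 2 in 33 of 34 genes, by 0.40 log2 units in the median, and the cardiomyocyte markers lay below by 2.82; over all genes the median gap was −0.03. On neonatal cardiomyocyte replicate 1, 26 of 34 members lay above replicate 2, by 0.24 in the median, and the cardiomyocyte markers lay above by 0.21. Members on the adult arrays had a median gap of 0.07. On neonatal cardiomyocyte replicates 1 and 2 the marker medians were 10.28 and 9.43 (fibroblast), 7.53 and 5.89 (leukocyte) and 9.02 and 8.15 (endothelial). On fibroblast replicates 1 and 2 they were 12.58 and 11.86, 11.96 and 9.55, and 6.57 and 7.76 in that order. Whether the share of any cell type in the preparations set the gaps of the members was not tested.

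**Figure D2:**
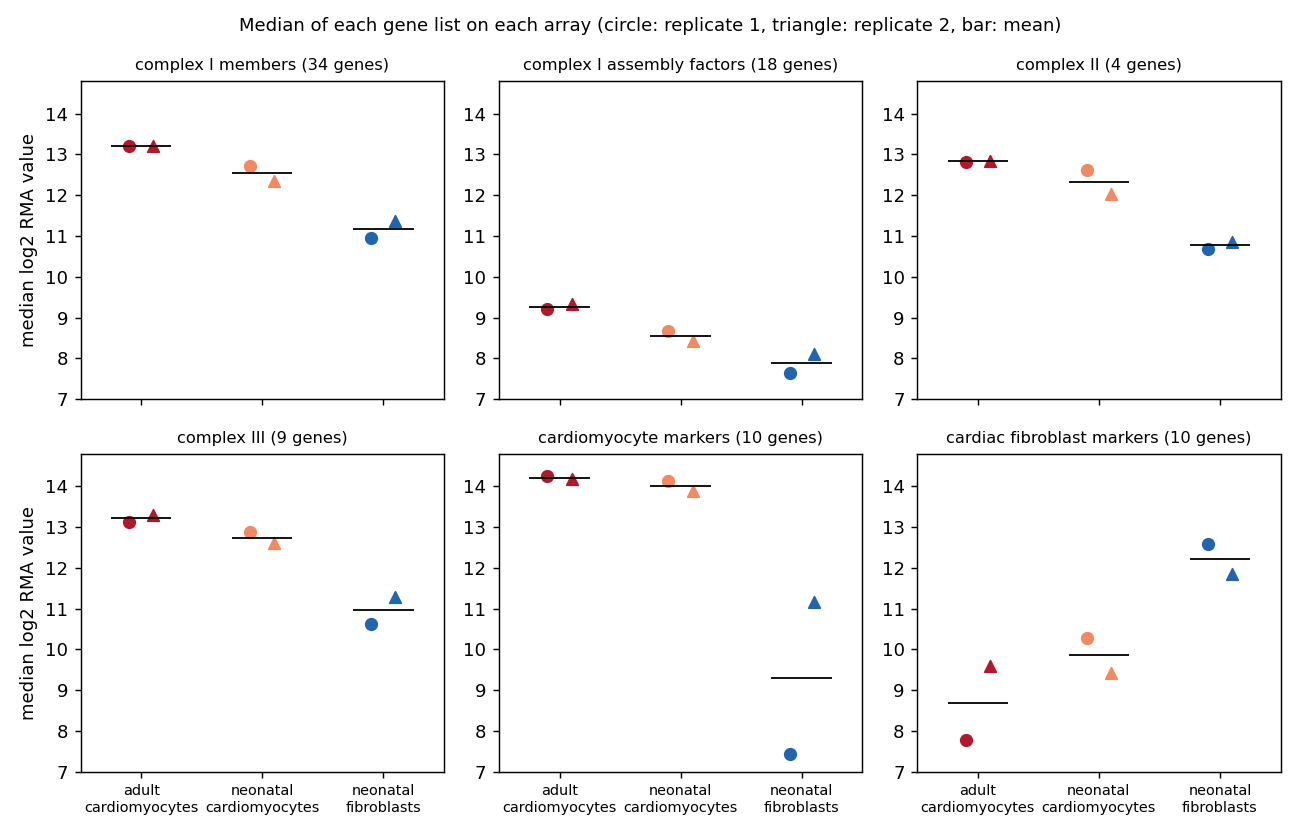
Median log2 RMA value (y axis) of each gene list on each array, with the groups along the x axis, circles for replicate 1, triangles for replicate 2 and bars for the mean of the pair. The complex I median was 13.20 on both adult arrays, 12.71 and 12.36 in neonatal cardiomyocytes and 10.96 and 11.37 in fibroblasts; the cardiomyocyte marker median was 7.44 on fibroblast replicate 1 and 11.17 on replicate 2.

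Between adult and neonatal cardiomyocytes 33 of 34 members had higher means in the adult cells (57.4% of all genes), but limma called 0, with 11 at unadjusted p under 0.05 (11.1% of all genes at that level); among all genes 1.08% were called higher, 1.22% lower and 2.3% in either direction. The median log2 difference was 0.54 (1.46-fold), against 0.09 for all genes. The arrays did not overlap in 31 of 34 members, against 33.9% of all genes, and Ndufa2, Ndufb6 and Ndufc2 were the exceptions. Ndufs7 came closest to a call, at 1.10 ± 0.18 (SE), 2.14-fold, with an adjusted p of 0.0553 and a 95% interval between 0.65 and 1.55. Next in size were Ndufs1 (0.90 ± 0.40, adjusted p = 0.255) and Ndufv3 (0.87 ± 0.24, 0.133), followed by Ndufb3 (0.87 ± 0.20, 0.0985).

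The smallest differences between the cardiomyocyte ages were in Ndufb6 at −0.15 (95% interval −0.74 to 0.45), Ndufb4 at 0.09 (−0.33 to 0.52) and Ndufa2 at 0.15 (−0.41 to 0.71). These intervals leave room for changes in either direction. After quantile normalization of the deposited values Ndufs7 was called (adjusted p = 0.0443) and Ndufb4 turned to −0.05. No alternative run called any other member between the ages. On the adult and neonatal cardiomyocyte arrays the cardiomyocyte marker median was 14.24 and 14.17 against 14.13 and 13.89. These values lie near the top of the scale, where differences can be compressed. Fibroblast marker medians were 7.77 and 9.58 against 10.28 and 9.43. Those of leukocytes were 7.15 and 8.77 against 7.53 and 5.89, and of endothelial cells 8.42 and 9.56 against 9.02 and 8.15. The part of these in the differences between the ages was not tested.

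**Figure D3:**
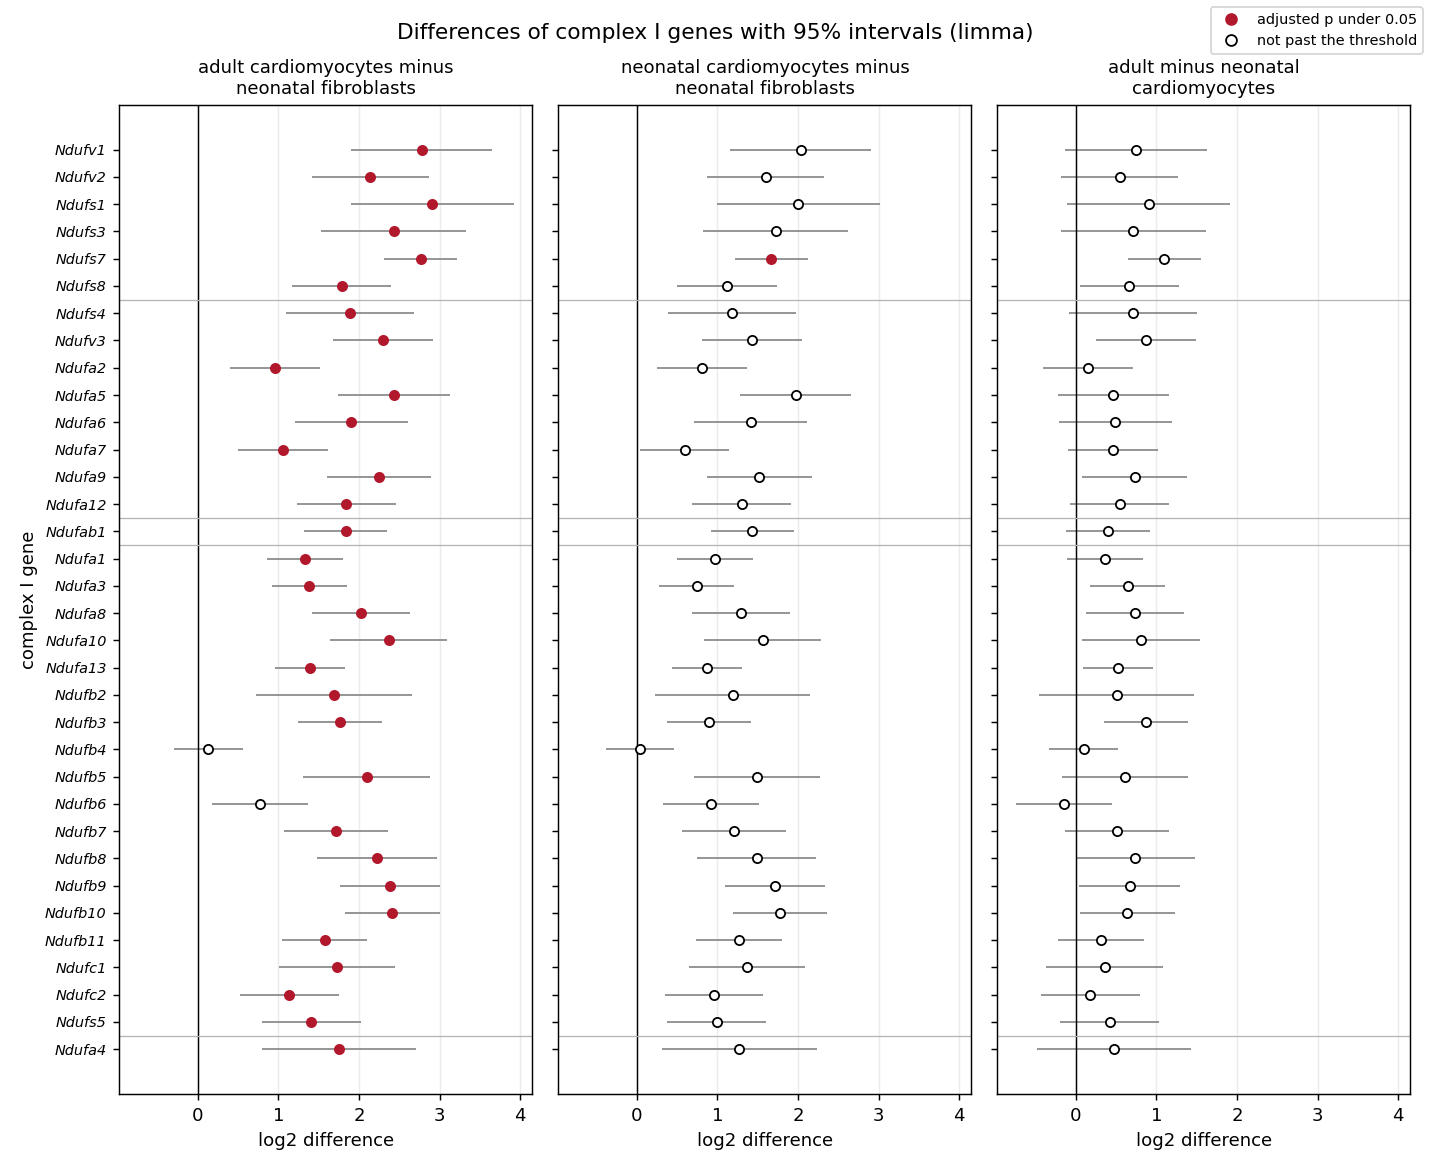
Log2 differences (x axis) of the 34 complex I genes (rows) in the 3 comparisons, as points with 95% intervals from limma; filled points had an adjusted p under 0.05. Filled points number 32 for adult cardiomyocytes minus fibroblasts, 1 (Ndufs7) for neonatal cardiomyocytes minus fibroblasts and 0 for adult minus neonatal cardiomyocytes.

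The comparisons share arrays, and the adult minus fibroblast difference of a gene is the sum of the other two. Of that sum the neonatal cell type difference made up 70.4% in the median member. The share was lowest in Ndufb3 (50.8%), Ndufa3 (53.6%) and Ndufa7 (56.1%), apart from the dim Ndufb4. It was highest in Ndufa2 (84.6%), Ndufc2 (84.5%) and Ndufa5 (80.9%), apart from Ndufb6, where it passed the whole (119%) on the probe set used, whose adult mean lay below the neonatal one; on the second Ndufb6 probe set the adult mean lay above it.

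To see which subunits left the common course, each array was centred on its own complex I median and all genes were fitted again. The centring itself moves all other genes, so that 89.8% of all genes departed downwards and 2.1% upwards between adult cardiomyocytes and fibroblasts, and adjusted p-values lie close to unadjusted ones. In that comparison 5 members departed downwards. They were the dim Ndufb4 (−1.91 ± 0.34 SE, limma adjusted p = 0.000794), Ndufb6 (−1.27 ± 0.36, 0.00779), Ndufa2 (−1.08 ± 0.35, 0.0140), Ndufa7 (−0.98 ± 0.34, 0.0188) and Ndufc2 (−0.90 ± 0.35, 0.0344). Upwards 1 of 34 members departed, near the 2.1% of all genes, so this call says little about the subunit. It was Ndufs1 (0.87 ± 0.36, unadjusted p = 0.0401, adjusted p = 0.0438 in limma), already the member with the largest difference. Ndufv1 (0.74, 0.0598) and Ndufs7 (0.73, 0.0556) lay next to it.

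Between the neonatal cell types Ndufb4 departed (−1.34 ± 0.34, adjusted p = 0.00831; 84.2% of all genes departed downwards and 1.57% upwards), and Ndufa7 lay at −0.78 (adjusted p = 0.0519). Between the cardiomyocyte ages limma called 0 members, against 12% of all genes downwards and 1.04% upwards; Ndufb6 had the largest departure, −0.81 ± 0.36 (unadjusted p = 0.0512, adjusted p = 0.160), on the probe set used. The departures of Ndufb6 depend on that choice, since its second probe set differed from it by the values given above. Ndufa2 and Ndufc2 were read by probe sets that can bind related transcripts, and Ndufa2 had no other. For Ndufc2 a bright probe set not of that kind gave 0.99 ± 0.25 (SE) for adult cardiomyocytes minus fibroblasts, against 1.13 on the one used. The 6 departures between adult cardiomyocytes and fibroblasts became fewer without either adult array, and 4 in the replicate block (91.8% of all genes). They became 11 when all probe sets of a gene were averaged (93.4% of all genes) and 10 after quantile normalization (91.6%). The medians by arm (2.60 for the core, 1.90 and 1.70 for the accessory subunits of the matrix and membrane arm) were not tested against each other.

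**Figure D4:**
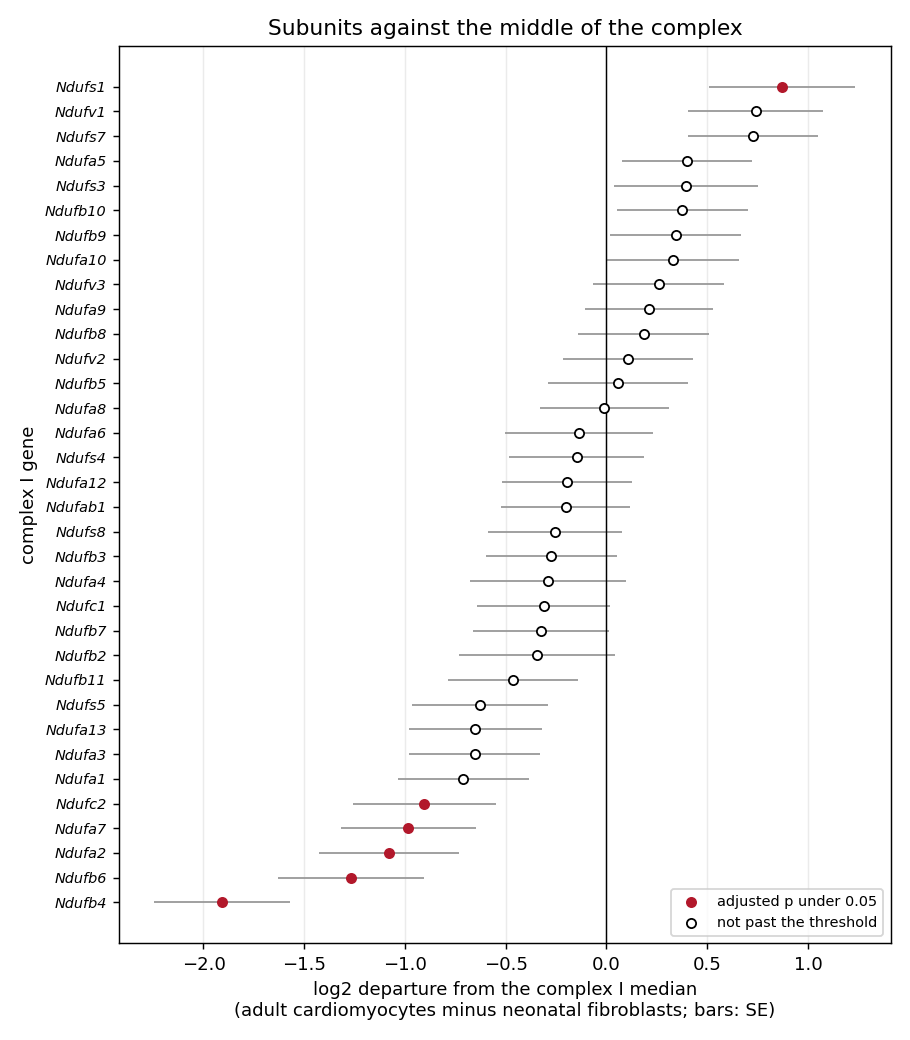
Departure of each complex I gene (rows, ordered by size) from the complex I median in adult cardiomyocytes minus neonatal fibroblasts, on the log2 scale (x axis), with bars for 1 SE; filled points had an adjusted p under 0.05. Ndufb4, Ndufb6, Ndufa2, Ndufa7 and Ndufc2 lie below 0 and Ndufs1 above it.

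Most members were read by more than 1 probe set. Of the 34, 20 had several, and of their 42 other probe sets 40 had the sign of the one used for adult cardiomyocytes minus fibroblasts, 38 for neonatal cardiomyocytes minus fibroblasts and 38 for adult minus neonatal cardiomyocytes. For adult minus fibroblast the exceptions were a dim probe set of Ndufb8 (−0.22, mean value 6.27) and a dim one of Ndufab1 (−1.78, mean value 5.59). The exceptions in the other comparisons had mean values under 6.5, except the bright second probe set of Ndufb6 for adult minus neonatal cardiomyocytes (0.13, mean value 12.08). A probe set whose name ends in _s_at or _x_at can bind related transcripts, and 7 members were read by one. Without such probe sets 32 members were measured and 27 of them rose between adult cardiomyocytes and fibroblasts. Of all genes 20% were then called in either direction, against 21% in the main fit.

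The region before the start of the genes was examined for shared sequence, since the members moved together. RefSeq promoters (GRCm38.p6) were found for 31 of the 34; Ndufs1, Ndufa2 and Ndufb9 were not matched. In the 250 bases before the start, members had a median GC content of 58% against 57.6% for the 14452 genes tested that had a promoter, and 0 of 31 had a TATA box (TATAAA or TATATA, on the gene's strand, 40 to 16 bases before the start) against 3.43%. Printed here, 5′ to 3′ on the strand of the gene, are the bases before Ndufs7, the member called between the neonatal cell types (chr10:80249199-80249448, + strand), before Ndufa8 and Ndufs3, called members with an NRF1 and an ETS match (chr2:36049339-36049588 and chr2:90904722-90904971, both − strand), and before Ndufb6, one of the members that departed downwards (chr4:40279422-40279671, − strand). Capitals mark matches to the motifs given below.
Ndufs7: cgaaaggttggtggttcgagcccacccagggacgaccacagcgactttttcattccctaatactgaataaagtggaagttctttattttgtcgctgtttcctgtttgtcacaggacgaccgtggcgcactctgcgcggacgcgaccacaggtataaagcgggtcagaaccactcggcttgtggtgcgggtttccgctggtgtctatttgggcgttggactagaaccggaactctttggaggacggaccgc
Ndufa8: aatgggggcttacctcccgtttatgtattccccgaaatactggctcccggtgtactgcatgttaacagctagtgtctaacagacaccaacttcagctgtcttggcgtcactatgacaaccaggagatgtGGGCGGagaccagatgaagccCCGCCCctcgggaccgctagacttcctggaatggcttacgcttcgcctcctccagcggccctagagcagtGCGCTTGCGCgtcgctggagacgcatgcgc
Ndufs3: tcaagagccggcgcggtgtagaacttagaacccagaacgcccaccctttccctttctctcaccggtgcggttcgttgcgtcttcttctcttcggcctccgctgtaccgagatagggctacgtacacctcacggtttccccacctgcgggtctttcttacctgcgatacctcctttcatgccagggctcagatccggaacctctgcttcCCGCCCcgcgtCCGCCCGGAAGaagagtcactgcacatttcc
Ndufb6: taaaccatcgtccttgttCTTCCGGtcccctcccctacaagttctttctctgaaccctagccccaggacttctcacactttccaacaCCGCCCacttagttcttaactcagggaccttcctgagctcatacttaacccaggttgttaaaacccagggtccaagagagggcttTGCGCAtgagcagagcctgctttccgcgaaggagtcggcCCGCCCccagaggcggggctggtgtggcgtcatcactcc

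Motifs of factors known to act on genes of respiration were searched on both strands. The full motif of NRF1, a regulator of nuclear respiratory genes, was found in 4 of 31 members (12.9%) and 6.37% of all promoters. Its core TGCGCA, which can overlap the full motif, was found in 6 members (19.4%) and 9.63%. The ETS motif CCGGAAG, bound by GABPA, was found in 3 members (9.68%) and 10.6% of all. The motif TNAAGGTCA of estrogen-related receptors was found in 1 member (3.23%, Ndufb4) and 0.934% of all. The SP1 motif GGGCGG was found in 14 (45.2%) and 49.9%, CCAAT in 9 (29%) and 35.7%, and the YY1 motif AAGATGGC in 0 and 1.77%. In the printed sequences Ndufs7 held none of these motifs, Ndufa8 held the NRF1 motif 30 to 21 bases before its start and 2 SP1 motifs, and Ndufs3 held an ETS motif, 27 to 21 bases before its start, that overlaps 1 of its 2 SP1 motifs, 31 to 26 bases before it. Ndufb6 held the NRF1 core, an ETS motif and 2 SP1 motifs. No motif was in most members, and a match describes letters only.

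Assembly factors help build complex I and leave it once it is complete. Of 18 measured of 19 listed, 10 rose in adult cardiomyocytes relative to fibroblasts and 0 fell, against 10.1% and 11% of all genes. Their median log2 difference was 1.18. Foxred1, needed for late assembly, measured 9.55 and 9.65 in adult cardiomyocytes, 9.06 and 8.29 in neonatal cardiomyocytes and 6.98 and 7.20 in fibroblasts (2.51 ± 0.30 SE on the log2 scale, adjusted p = 0.00959). Ecsit, which joins an assembly complex with Ndufaf1 and Acad9, measured 9.58 and 9.36, 8.52 and 8.42, and 6.91 and 7.32 in that order (2.36). Ndufaf1 itself rose by 2.14, Dmac2 by 2.07, Ndufaf6 by 2.05, Tmem70 by 1.77, Ndufaf4 by 1.68, Ndufaf8 by 1.20, Ndufaf3 by 1.16 and Tmem186 by 1.12. At the low end Dmac1 differed by −0.18 (adjusted p = 0.645) and Tmem126b by 0.32 (0.494).

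Between the neonatal cell types and between the cardiomyocyte ages limma called 0 assembly factors. At unadjusted p under 0.05, 11 and 5 of the 18 were higher, against 8.95% and 11.1% of all genes. Their median differences were 0.76 and 0.45. Of the other complex I subunits listed, Ndufb1 had a probe set of its own, at 8.25 and 8.24 in adult cardiomyocytes, 7.40 and 7.65 in neonatal cardiomyocytes and 7.35 and 7.40 in fibroblasts. It rose in adult cells relative to fibroblasts by 0.87 (adjusted p = 0.0274) and differed by 0.15 between the neonatal cell types. Ndufa4l2, a paralog of Ndufa4 induced by hypoxia, measured 8.01 and 7.19, 8.25 and 6.15, and 6.47 and 6.51 in that order, and was called in none of the 3 comparisons (limma adjusted p = 0.313 for adult cells against fibroblasts).

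Complexes II and III, which pass electrons to and from the same ubiquinone pool, were set beside complex I. Complex II had a median log2 difference of 2.18 between adult cardiomyocytes and fibroblasts, with 3 of 4 genes called higher. Complex III had 2.20, with 9 of 9 called higher, beside 1.84 and 32 of 34 for complex I and 10.1% of all genes. Sdhb rose by 2.46, Sdha by 2.41 and Sdhd by 1.95, while Sdhc differed by 1.80 (adjusted p = 0.113). In complex III the differences ran between 0.92 in Uqcrb and 2.74 in Uqcrc1. Between the neonatal cell types the medians were 1.69 and 1.68 for complexes II and III and 1.30 for complex I, and between the ages 0.57, 0.47 and 0.54. In either comparison limma called 0 genes of complexes II and III. At unadjusted p under 0.05, 3 of 4 and 9 of 9 were higher between the neonatal cell types (8.95% of all genes). Between the ages 0 of 4 and 1 of 9 were higher at that level (11.1% of all genes). Differences between the complexes were not tested.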

How the data were processed

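Total RNA of 6 samples was labelled and hybridised to 1-colour Affymetrix arrays, per the labels. The deposited table holds log2 values for 45101 probe sets. The submitters' processing notes name RMA, a method that subtracts background, quantile-normalizes and combines the probes of a set; the sources used here give no version. RMA gives no detection call, and differences near the floor or the top can be compressed. The number of arrays limits the precision.

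By GEO's platform annotation 34945 probe sets belonged to a single gene and 932 to several, and the 64 control probe sets were left out. A gene was read by its brightest probe set over all arrays, which gave 18193 genes. Groups followed the source name. A model with 3 group means was fitted to all arrays in limma 3.58.1 (R 4.3.3), with 3 residual and 2.18 prior degrees of freedom, two-sided tests and Benjamini-Hochberg adjustment over all genes. It was tested on simulated data. Every member is named, as the naming rule provides; other genes come from the lists of assembly factors and complexes. Members, lists and alternatives were chosen with earlier results of these data known.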

Additional observations from a re-analysis of the deposited data

How the results depend on the processing

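Each group has 2 arrays, and RMA values give no signal over background. Leaving out 1 array at a time left 1 in a group. In both comparisons with fibroblasts the members called then varied. They fell to none in some runs, where the calls over all genes fell to none as well. Between the ages none was called. The medians ran between 1.65 and 2.15 for adult cardiomyocytes minus fibroblasts and 1.07 and 1.59 for neonatal cardiomyocytes minus fibroblasts. For adult minus neonatal cardiomyocytes they ran between 0.44 and 0.71. The members departing from the complex I median varied in the comparisons with fibroblasts too. A lone array is assumed to vary like the other groups. All these medians were positive.

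For neonatal cardiomyocytes minus fibroblasts the 1 call became 0 with probe sets averaged (32 members at unadjusted p under 0.05 in limma), 0 with only the 4 arrays compared (32), 0 with the groups of the titles (0), 0 without both neonatal replicate 1 arrays (18) and 0 without both neonatal replicate 2 arrays (30), the last chosen after seeing the data. It became 2 with arrays centred on their medians (1.43% of all genes) and 5 with a variance trend (1.36%). With only genes above the lower quartile of mean values it became 4 (2% of the genes kept). The main fit called 0.819% of all genes. With probe sets averaged 0.324% of all genes were called, and 0 with only the 4 arrays compared or the groups of the titles. Without both neonatal replicate 1 or both replicate 2 arrays, fewer genes over the whole table were called in either comparison with fibroblasts. For adult minus neonatal cardiomyocytes quantile normalization called 1 member (2.5% of all genes, against 2.3% in the main fit). For adult cardiomyocytes minus fibroblasts the 32 became 3 without both neonatal replicate 1 arrays, 19 without both neonatal replicate 2 arrays and 0 with the titles' groups (1 unadjusted). The median there was 2.15 without both neonatal replicate 2 arrays and 1.05 by the titles; for neonatal cardiomyocytes minus fibroblasts it was 1.69, 0.92 without both neonatal replicate 1 arrays and −0.36 by the titles; for the ages it was 1.39 by the titles. For adult cardiomyocytes minus fibroblasts the departures became 11 with probe sets averaged (93.4% of all genes), 10 with quantile normalization (91.6%) and 0 by the titles (2.75%). For neonatal cardiomyocytes minus fibroblasts they became 4 (90.2%), 2 (85.4%) and 0 (0%) in those settings. None were left there without both neonatal replicate 1 arrays, over all genes as well. Centring on array medians moved the median of all genes by 0.15 for adult cardiomyocytes minus fibroblasts. The causes were not tested.

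The replicate block, with the numbers of the titles, called 0 members for neonatal cardiomyocytes minus fibroblasts (33 unadjusted, limma) and 0 genes in all. It called 32 members for adult cardiomyocytes minus fibroblasts (26.4% of all genes). Between the ages it called 0 (11 unadjusted), against 3.34% of all genes. Departures for adult cardiomyocytes minus fibroblasts numbered 4 in place of 6 (91.8% of all genes). Gaps between replicates correlated across genes at 0.27, 0.21 and 0.18 over the pairs of groups, but with 2 numbers the labels do not show that they pair the samples.

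With the groups of the titles all 34 members had lower means in neonatal cardiomyocytes than in fibroblasts: Ndufa1 −0.20, Ndufa10 −0.51, Ndufa12 −0.38, Ndufa13 −0.13, Ndufa2 −0.12, Ndufa3 −0.21, Ndufa4 −0.39, Ndufa5 −0.49, Ndufa6 −0.11, Ndufa7 −0.21, Ndufa8 −0.40, Ndufa9 −0.46, Ndufab1 −0.28, Ndufb10 −0.33, Ndufb11 −0.29, Ndufb2 −0.41, Ndufb3 −0.27, Ndufb4 −0.061, Ndufb5 −0.43, Ndufb6 −0.051, Ndufb7 −0.33, Ndufb8 −0.54, Ndufb9 −0.39, Ndufc1 −0.45, Ndufc2 −0.16, Ndufs1 −0.75, Ndufs3 −0.52, Ndufs4 −0.53, Ndufs5 −0.26, Ndufs7 −0.20, Ndufs8 −0.33, Ndufv1 −0.69, Ndufv2 −0.54, Ndufv3 −0.38. Between the ages Ndufb6 was then 0.34. The title groups go against the marker sums of the neonatal replicate 1 arrays given above. In neonatal cardiomyocytes minus fibroblasts Ndufb4 was −0.024 without both neonatal replicate 1 arrays and ranged between −0.053 and 0.13 with 1 array left out, and Ndufa12 was −0.34, on a dim probe set, without the _s_at and _x_at probe sets, a choice made after seeing the data. Ndufb4 was −0.0051 in adult cardiomyocytes minus fibroblasts and −0.049 between the ages after quantile normalization. Between the ages, with 1 array left out, Ndufa2 ranged between −0.0013 and 0.30, Ndufb6 between −0.42 and 0.12 and Ndufc2 between −0.058 and 0.41; Ndufc2 was −0.058 without both neonatal replicate 2 arrays.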
